A study of Mus musculus with 12 samples.

Results

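Ear skin of wild-type mice was compared 1 day after maxacalcitol ointment with ear skin that had received nothing. The comparison took every library labelled wild-type_Oxarol (3) and every library labelled wild-type_No treatment (3), 6 of the 12 RNA-seq libraries of the series, and every gene with at least 1 FPKM (a read level corrected for transcript length and library size) in at least 3 of the 12 libraries, which is 14059 of the 23234 genes listed. The mice of both groups were C57BL/6J and wild type, and the mice of all 12 libraries were 8 to 12 weeks old. The ointment dose was 100 mg of Oxarol holding 2.5 µg of maxacalcitol, a synthetic analogue of the active form of vitamin D3, put on the ear. The contrast therefore holds handling of the ear, the ointment base and the drug together, and these cannot be told apart within it. The other libraries are used beside it: 3 of wild-type C57BL/6J ears taken 1 day after PBS, which is a saline and not the ointment base, and 3 of ears labelled K5-Cre;VDR f/f, 1 day after the same ointment. In that genotype Cre under the keratin 5 promoter removes the floxed vitamin D receptor gene from keratinocytes and leaves it in other cells of the skin, and no untreated or PBS library of that genotype was analysed here. The labels do not say that libraries of a group came from separate mice, so the p-values measure the spread between libraries, which may be in part technical.

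The vitamin D receptor, encoded by Vdr, is a nuclear receptor that binds DNA with a retinoid X receptor once the hormone is bound, and it switches on Cyp24a1, whose enzyme breaks the hormone down. Keratinocytes carry the receptor, make the hormone themselves and respond to it by changing their proliferation and cornification. Analogues such as maxacalcitol are used on skin in psoriasis, and in mice they are known to raise the epithelial cytokine Tslp.

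Differences are given on the log2(FPKM + 1) scale as ointment minus untreated with a standard error. A gene was called where limma's p, adjusted over all 14059 genes by the Benjamini-Hochberg method, was under 0.05. Below, before ointment stands for the untreated libraries, and rose or fell for a difference between groups. The labels tie no untreated library to an ointment library. Replicates 1 and 2 of each wild-type group have library codes from one run of numbers and replicate 3 from a later run, and all 3 libraries labelled K5-Cre;VDR f/f belong to the later run. What the runs stand for is not in the labels. The 3 libraries of a group correlated at 0.931 to 0.965 across genes and the untreated with the ointment libraries at 0.924 to 0.953, with genes not being independent replicates. The value of 1 read at low genes put the depth of the libraries, relative to untreated replicate 1, at 1.02 and 0.718 for untreated replicates 2 and 3 and at 1.23, 1.69 and 0.516 for ointment replicates 1 to 3. By this estimate, which rested on 10.9% to 16.5% of the low genes compared, ointment replicate 3 was the shallowest and replicate 2 the deepest. Among the called genes ointment replicate 1 was most often nearest to the untreated ears: it had the lowest ointment value in 82 of the 139 genes called higher and the highest in 31 of the 45 called lower, whereas replicate 2 had the highest in 79 and the lowest in 30. Across all genes this depended on the untreated library, with small gaps. With untreated replicates 1 and 2, ointment replicate 2 correlated at 0.948 and 0.953 and replicate 1 at 0.942 and 0.951. With untreated replicate 3, ointment replicate 2 correlated at 0.935 and replicate 1 at 0.939.

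Of 14059 genes, 184 (1.31%) were called, 139 (0.989%) higher and 45 (0.32%) lower in ointment-treated ears, and 2403 (17.1%) had an unadjusted p under 0.05. These shares are the background for each count of list members given below. Among the called genes 67 higher and 13 lower were past 2-fold, and the median differences were 0.97 and -0.67, beside -0.00 for all genes tested. In all 184 the ointment and untreated libraries did not overlap, but absence of overlap was seen for 18.8% of all genes, 8.97% higher and 9.85% lower. Of the genes called higher, 6 passed the filter on low values through their ointment libraries alone, so their difference was a condition of being tested. The same fit called 1 gene (0.00711%) between PBS and untreated ears, 43 (0.306%) between ointment and PBS, and 2668 (19%) between the libraries labelled K5-Cre;VDR f/f and untreated wild type. Ointment minus PBS is itself the test of whether the ointment difference exceeds the PBS difference, since both are taken from the same untreated libraries.

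The number called moved with single libraries. It was 50 without untreated replicate 3, 31 without ointment replicate 2 and 28 without ointment replicate 3, and 67, 120, 74 and 96 without PBS replicate 1 and replicates 1 to 3 of K5-Cre;VDR f/f, which enter only through the shared spread and the filter. With the 6 libraries alone in the fit it was 12, and with the run of library codes as a term 253, of which 177 were among the 184. The sign of the difference was kept in each of these fits by all of the 184 genes still present.

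**Figure D1:**
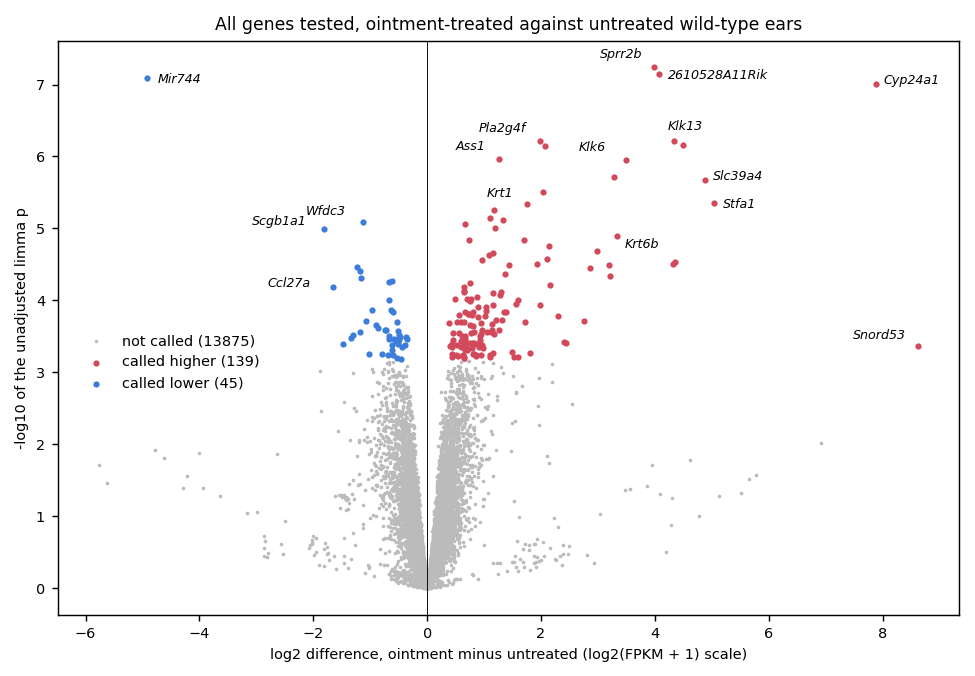
Each point is 1 of 14059 genes, with the log2 difference of ointment-treated minus untreated wild-type ears on the x axis and -log10 of the unadjusted limma p on the y axis. Red points are the 139 genes called higher and blue points the 45 called lower; Cyp24a1 lies at 7.89 and the largest called decrease outside the short RNAs, Scgb1a1, at -1.81.

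Cyp24a1 had the largest increase of any protein-coding gene, while Vdr itself did not change detectably. Cyp24a1, the hormone's 24-hydroxylase, was at 0.372, 0.0203 and 0 FPKM in untreated ears and at 66.2, 599 and 458 FPKM after ointment. The gene was close to silent in each untreated library, and ointment replicate 1 was several times below the other ointment libraries. The difference was 7.89 ± 0.62 (adjusted p = 0.000346), and the gene was among those tested only because of its ointment libraries. It stayed at or below 0.0296 FPKM in the 3 PBS libraries, and ointment minus PBS was 8.02 ± 0.62 (adjusted p = 0.000566). In the libraries labelled K5-Cre;VDR f/f it was at 0, 0.271 and 0.175 FPKM. The call was lost with the first run of library codes alone, 2 libraries a group, at a difference of 7.41 (adjusted p = 0.113).

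Vdr was at 4.87, 9.35 and 9.57 FPKM in untreated and at 7.87, 6.68 and 7.05 FPKM in ointment-treated ears, and the groups overlapped. The difference was -0.08 ± 0.21 (adjusted p = 0.898). In the libraries labelled K5-Cre;VDR f/f, Vdr was at 23.6, 25.0 and 18 FPKM, above every wild-type library; a value over the whole gene does not show whether the floxed part was read, so it does not check those labels. Hr, the corepressor hairless that binds the vitamin D receptor in keratinocytes, rose from 5.71, 9.87 and 10.4 FPKM to 16, 18.5 and 16.4 FPKM (difference 0.93 ± 0.18, adjusted p = 0.039). Its call was lost in 9 of the 12 fits that left out 1 library, with an adjusted p of up to 0.159 without ointment replicate 2. Of the 12 tested members of the list of receptor and vitamin D metabolism genes, Cyp24a1 and Hr were called higher and none lower, and the list median was -0.02. Of 13 tested targets of the receptor known from gut, bone and other tissues, limma called none, with a median of 0.14. An unadjusted p under 0.05 was seen for 4 of them, beside 17.1% of all genes.

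A pair of zinc importers rose. Slc39a4, the zinc importer ZIP4 that is mutated in acrodermatitis enteropathica, was at 0.474, 0.528 and 0.528 FPKM in untreated ears and at 12.9, 87.8 and 71.2 FPKM after ointment. The untreated libraries lay close together, and ointment replicate 1 was again the lowest treated library. The difference was 4.89 ± 0.53 (adjusted p = 0.00246), and ointment minus PBS was 4.95 ± 0.53 (adjusted p = 0.00433). It was at 0.393, 0.664 and 0.671 FPKM in the libraries labelled K5-Cre;VDR f/f, and, like Cyp24a1, it passed the filter only through the ointment libraries. With the first run of library codes alone the call was lost (adjusted p = 0.277). Slc39a2, the epidermal zinc importer ZIP2, rose from 3.87, 3.87 and 2.59 FPKM to 7.61, 13.4 and 11.2 FPKM (1.38 ± 0.24, adjusted p = 0.028), and this call was lost in 4 of 12 fits that left out 1 library, with an adjusted p of up to 0.134 without ointment replicate 2. These were 2 of the 22 zinc transporters and metallothioneins tested, none was called lower, and the median was 0.15. Mt1, a zinc-binding metallothionein, was at 374, 310 and 238 FPKM before and 407, 420 and 395 FPKM after ointment (0.43 ± 0.14, adjusted p = 0.161).

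The kallikreins are serine proteases, several of which cut the junctions between cornified cells and so release them. Of 10 tested, 5 were called higher and none lower, beside 0.989% and 0.32% of all genes, and the list median was 0.79 against 0.15 for PBS minus untreated. In the order of RefSeq's annotation the members on the chromosome are Klk14, Klk13, Klk12, Klk11, Klk10, Klk9, Klk8, Klk7, Klk6 and Klk5, so the called genes are Klk13, Klk12, Klk9, Klk8 and Klk6. The 250 bases before the start sites of the 3 with the largest differences are shown as RefSeq gives them on GRCm38.p6, 5′ to 3′ on the gene's strand, with capitals marking every receptor half-site on either strand:
Klk13, chr7:43712317-43712566, + strand: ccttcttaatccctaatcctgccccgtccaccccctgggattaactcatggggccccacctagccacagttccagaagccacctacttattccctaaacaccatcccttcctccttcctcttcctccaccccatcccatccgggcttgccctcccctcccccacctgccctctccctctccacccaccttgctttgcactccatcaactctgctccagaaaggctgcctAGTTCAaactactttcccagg
Klk12, chr7:43768850-43769099, + strand: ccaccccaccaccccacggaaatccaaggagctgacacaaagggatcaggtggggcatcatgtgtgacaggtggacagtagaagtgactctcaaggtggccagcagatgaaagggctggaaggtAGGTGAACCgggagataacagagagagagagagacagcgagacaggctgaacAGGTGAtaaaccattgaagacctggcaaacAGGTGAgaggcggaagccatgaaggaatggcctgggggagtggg
Klk6, chr7:43825200-43825449, + strand: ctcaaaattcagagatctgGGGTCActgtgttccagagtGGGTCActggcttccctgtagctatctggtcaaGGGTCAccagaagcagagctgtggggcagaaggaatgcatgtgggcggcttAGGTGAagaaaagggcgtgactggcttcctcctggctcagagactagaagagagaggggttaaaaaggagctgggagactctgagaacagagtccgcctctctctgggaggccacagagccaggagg
The half-sites, the 6-base units from which elements of the vitamin D receptor are built, were searched on both strands: the consensus unit AGGTCA, the variant unit AGTTCA, the variant unit GGGTCA, the variant unit GGTTCA, the variant unit AGGTGA and the variant unit GGGTGA. Klk12 and Klk6 each held 4, counting in Klk12 a pair that overlap on opposite strands (AGGTGAACC), and 1.51% of the 32851 mouse promoters of this length in the table held 4 or more. These 2 were the only ones with 4 or more among the 96 promoters of called higher genes in the table. Klk13 held 1, as did or exceeded 53.6% of all promoters. A second Klk6 start in the table held 0. A pair of these half-sites in direct repeat with a spacer of 3 bases, the classical receptor element, was in 0.164% of all promoters and in none of the 96 promoters of 86 called higher genes or the 39 promoters of 30 called lower genes; at least 1 half-site was in 53.1% of the former and 53.8% of the latter. The other genes of the 139 called higher and 45 called lower had no promoter in the table and were not searched. Cyp24a1, Slc39a4, Serpina9, Scgb1a1 and Krt15 were among these. Elements of this receptor can lie far outside this window, and a match is a string of letters and not a shown site.

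Klk13 was at 2.70, 4.09 and 1.93 FPKM in untreated and 46.7, 109 and 86.8 FPKM in ointment-treated ears, and every treated library was far above the highest untreated one. The difference was 4.34 ± 0.41 (adjusted p = 0.00126), beside 3.58 ± 0.41 for ointment minus PBS (adjusted p = 0.00669). Klk6 went from 10.8, 8.93 and 4.47 FPKM to 63.5, 138 and 99.7 FPKM (3.49 ± 0.35, adjusted p = 0.00157), and ointment minus PBS was 2.85 ± 0.35 (adjusted p = 0.00778). Klk12 went from 2.46, 1.73 and 1.35 FPKM to 8.86, 49.1 and 32.9 FPKM (3.19 ± 0.46, adjusted p = 0.0125), with replicate 1 the lowest of the treated libraries in each of the 3 genes. The PBS libraries held Klk12 at 0.819 to 1.47 FPKM and those labelled K5-Cre;VDR f/f at 1.37 to 2.08 FPKM. Its call was lost without untreated replicate 3 (difference 3.06, adjusted p = 0.052) and without ointment replicate 3 (2.98, adjusted p = 0.0756), and those of Klk13, Klk6 and Klk12 were lost with the first run of library codes alone.

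Klk8 (1.10 ± 0.23, adjusted p = 0.0466) and Klk9 (0.83 ± 0.16, adjusted p = 0.0366) rose by far less, from untreated levels of 46.3 to 69.9 FPKM and 16.8 to 24.2 FPKM, and were lost in 8 and 7 of the 12 fits that left out 1 library, with adjusted p of up to 0.185 and 0.146 without ointment replicate 2. Klk7, the chymotryptic enzyme that is the most abundant kallikrein of the list, was at 293 to 393 FPKM before and 456 to 531 FPKM after ointment (0.55 ± 0.14, adjusted p = 0.0857). The 3 largest differences were thus at members with untreated means far below that of Klk7. Prss27, a membrane-anchored serine protease outside the list and chosen after its values were seen, rose from 7.64, 6.11 and 2.26 FPKM to 28.7, 50.9 and 49.2 FPKM (2.87 ± 0.42, adjusted p = 0.013), but not past the threshold without ointment replicate 2 (2.72, adjusted p = 0.0777) or 3 (2.75, adjusted p = 0.0768).

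A few protease inhibitors rose. Of 28 tested serpins, stefins and related inhibitors 4 were called higher, Stfa1, BC100530, Stfa3 and Serpina9, and none lower. Over all genes the shares were 0.989% and 0.32%, and the list median was 0.11. Other members moved in both directions, and differences ran from -0.86 to 5.03. Of the 28, 7 were higher and 3 lower without overlap, beside 8.97% and 9.85% of all genes. In 14 of them the unadjusted p was under 0.05, beside 17.1% of all genes. Stfa1, a stefin that blocks cysteine proteases, was at 2.72, 0.924 and 9.22 FPKM in untreated and 112, 187 and 119 FPKM in ointment-treated ears (5.03 ± 0.59, adjusted p = 0.00432). It was also at 30.4, 39.4 and 10.6 FPKM after PBS, every PBS library above every untreated one, and ointment minus PBS was 2.48 ± 0.59 (adjusted p = 0.158). BC100530 (4.36 ± 0.63), BC117090 (4.32 ± 0.63) and Stfa3 (2.99 ± 0.41), stefin genes of the same cluster, had the same pattern of untreated below PBS below ointment means, and each was lost without ointment replicate 2 (adjusted p = 0.0725, 0.0753 and 0.0649). The stefins are close copies of one another, so the authors' counting may have split reads between them. Serpina9, a serpin known from germinal centre B cells, was at 0.686, 2.19 and 1.25 FPKM in untreated ears, 2.58, 2.20 and 2.39 FPKM after PBS, and 11.7, 35.8 and 22.7 FPKM after ointment. The PBS libraries lay above the untreated ones by a small margin, and the ointment libraries far above both. Its difference was 3.28 ± 0.35 (adjusted p = 0.00245), and ointment minus PBS was 2.72 ± 0.35 (adjusted p = 0.00964). All 9 B cell markers found in the files were below the filter.

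**Figure D2:**
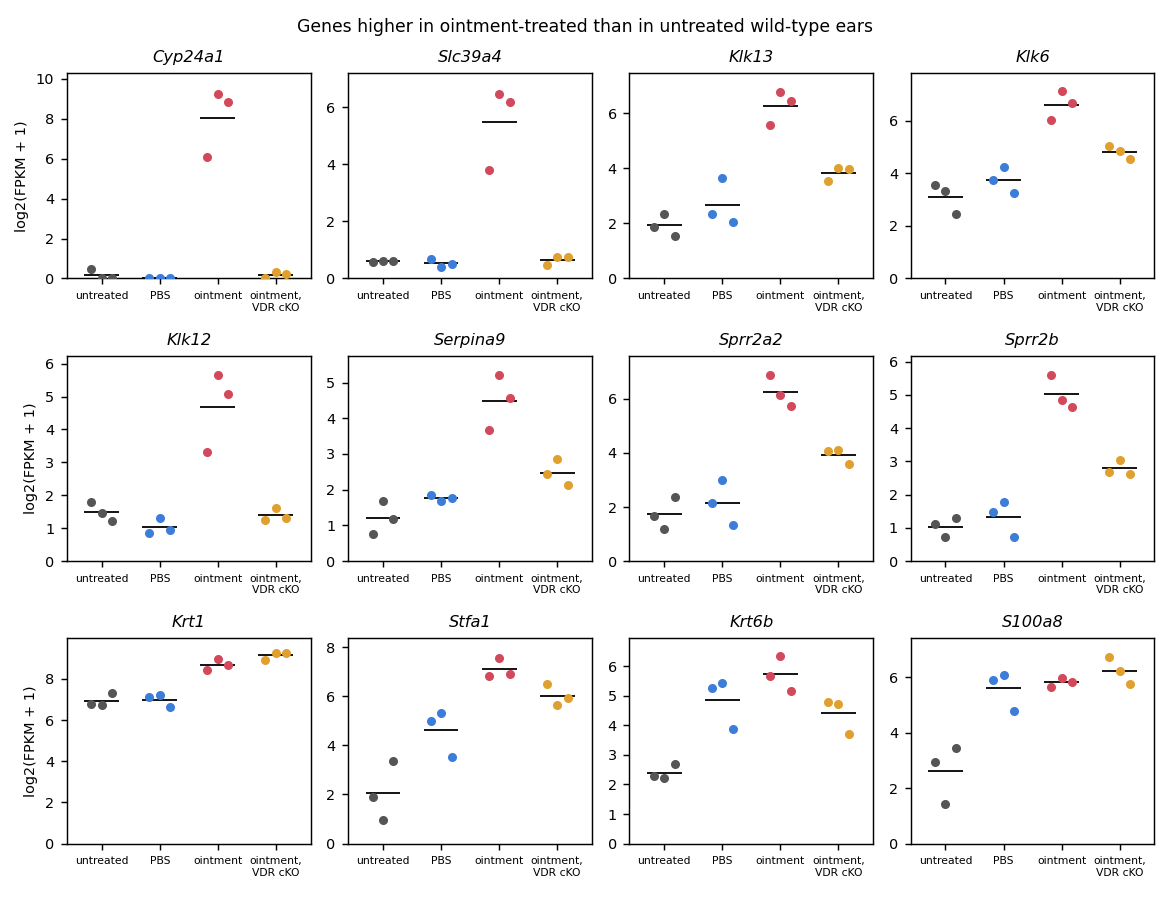
Panels show log2(FPKM + 1) of 12 genes that rose, with 1 point per library, 3 libraries per group and a bar at the group mean; VDR cKO stands for K5-Cre;VDR f/f. In Cyp24a1, Slc39a4 and Klk12 only the wild-type ointment libraries stand apart, from 66.2 FPKM upwards for Cyp24a1, whereas in Krt6b and S100a8 the PBS libraries sit beside the ointment libraries.

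The small proline-rich genes, whose proteins are cross-linked into the cornified envelope, held 4 called higher and none lower of 11 tested. Over all genes the shares were 0.989% and 0.32%. The list median was 1.55 against 0.41 for PBS minus untreated. Sprr2a2 rose from 2.19, 1.30 and 4.19 FPKM to 117, 69.2 and 52.1 FPKM (4.50 ± 0.43, adjusted p = 0.00126). Sprr2b rose from 1.16, 0.633 and 1.43 FPKM to 47.0, 27.9 and 23.7 FPKM (3.99 ± 0.30, adjusted p = 0.000346). In both, ointment replicate 1 was the highest and not the lowest treated library, unlike the genes above, and the call held under all 23 alternatives. Ointment minus PBS was 4.09 ± 0.43 (adjusted p = 0.00433) and 3.70 ± 0.30 (adjusted p = 0.000566). The Sprr2 genes are near-identical, so how reads were shared among them is uncertain.

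Sprr1b (2.75 ± 0.49, adjusted p = 0.0317) and Sprr2h (2.41 ± 0.47, adjusted p = 0.0402) rose too, but their PBS libraries, at 30.8, 68.0 and 13.8 FPKM for Sprr1b, overlapped the ointment libraries, at 41.7, 69.5 and 42.1 FPKM. Ointment minus PBS was 0.67 ± 0.49 (adjusted p = 0.912) for Sprr1b. Their calls were lost in 7 and 9 of 12 fits that left out 1 library, with adjusted p of up to 0.141 and 0.167 without ointment replicate 2. Sprr4, another envelope precursor, was at 55.6, 30.7 and 34.0 FPKM before and 32.0, 7.22 and 7.88 FPKM after ointment (-1.57 ± 0.46, adjusted p = 0.128), and was at 253, 217 and 150 FPKM in the libraries labelled K5-Cre;VDR f/f.

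Genes of the envelope scaffold moved in both directions, 13 above 0 and 12 below, with differences from -0.97 to 0.70. Without overlap 7 were higher and 2 lower, beside 8.97% and 9.85% of all genes. An unadjusted p under 0.05 was seen for 10 of the 25, beside 17.1% of all genes. Of 25 tested scaffold and filaggrin-type genes 1 was called, Rptn, which encodes repetin, at 2.11, 1.77 and 1.83 FPKM before and 4.09, 3.47 and 3.11 FPKM after ointment (0.65 ± 0.10, adjusted p = 0.0211), and the median was 0.06. The Rptn call was lost without untreated replicate 3 (0.63, adjusted p = 0.0732) or ointment replicate 2 (0.66, adjusted p = 0.0906). Ivl, which encodes involucrin, was at 47.0, 35.5 and 41.3 FPKM before and 32.8, 20.4 and 22.7 FPKM after ointment (-0.70 ± 0.19, adjusted p = 0.102). Of 18 late cornified envelope genes Lce1m alone was called, lower, at -0.79 ± 0.16 (adjusted p = 0.0466), and leaving out 1 library lost this call in 11 of 12 fits, with an adjusted p of up to 0.185 without ointment replicate 2.

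The called epidermal keratins moved in different directions. Krt1, the first keratin made when cells leave the basal layer, rose from 110, 106 and 159 FPKM to 344, 502 and 415 FPKM (1.75 ± 0.21, adjusted p = 0.00432). The PBS libraries, at 137, 148 and 99.2 FPKM, lay with the untreated ones, and ointment minus PBS was 1.71 ± 0.21 (adjusted p = 0.00669). Krt10, the partner of keratin 1, was at 2564, 3344 and 2176 FPKM before and 4262, 3535 and 3569 FPKM after ointment (0.51 ± 0.22, adjusted p = 0.269). Krt1 was also at 488, 620 and 618 FPKM in the libraries labelled K5-Cre;VDR f/f.

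Krt15, a keratin of basal cells and of hair follicle stem cells, fell from 2482, 2448 and 2092 FPKM to 1354, 814 and 984 FPKM (-1.18 ± 0.18, adjusted p = 0.0143). Krt14, the general basal keratin, was at 1319, 1230 and 907 FPKM before and 1836, 1417 and 1417 FPKM after ointment (0.44 ± 0.19, adjusted p = 0.274), so the 2 basal keratins had opposite signs. The Krt15 call was lost without ointment replicate 2 (-1.01, adjusted p = 0.0689) or 3 (-1.15, adjusted p = 0.0779). Krt23, an epithelial keratin of unsettled function, fell by 0.90 ± 0.16 (adjusted p = 0.0332), a call lost in 8 of 12 fits with 1 library left out, with an adjusted p of up to 0.102 without untreated replicate 3. Of the 11 epidermal keratins tested, 1 was called higher and 2 lower, and the median was 0.14.

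The activation keratins Krt6b, Krt6a and Krt16 rose, and their means were above untreated after PBS as well, whereas Krt17, of the same list, was at 161, 171 and 201 FPKM in untreated and 193, 171 and 156 FPKM in ointment-treated ears (-0.03 ± 0.18, adjusted p = 0.951), with a sign that turned in 3 alternatives. Krt6b was at 3.84, 3.71 and 5.44 FPKM in untreated, 37.8, 41.9 and 13.8 FPKM in PBS-treated and 50.3, 80.7 and 35 FPKM in ointment-treated ears. The difference from untreated was 3.34 ± 0.44 (adjusted p = 0.0077) and held under all 23 alternatives, and ointment minus PBS was 0.87 ± 0.44 (adjusted p = 0.747). Krt6a (1.73 ± 0.31, adjusted p = 0.0317) and Krt16 (1.16 ± 0.24, adjusted p = 0.0466) followed, with ointment minus PBS at 0.36 ± 0.31 and 0.43 ± 0.24, and were lost in 8 and 10 of 12 fits with 1 library left out, with adjusted p of up to 0.136 and 0.176 without ointment replicate 2. Of 17 tested genes of the list of stress keratins and activated epidermis 6 were called higher and none lower, beside 0.989% and 0.32% of all genes. Besides Krt6b, Krt6a and Krt16 these were S100a8, S100a9 and Cd44. Cd44, a hyaluronan receptor (0.53 ± 0.10, adjusted p = 0.0402), was lost in 9 of 12 fits with 1 library left out, with an adjusted p of up to 0.137 without ointment replicate 3. The list median was 0.16, and 0.45 for PBS minus untreated, so most members did not share the increase of the called ones.

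**Figure D3:**
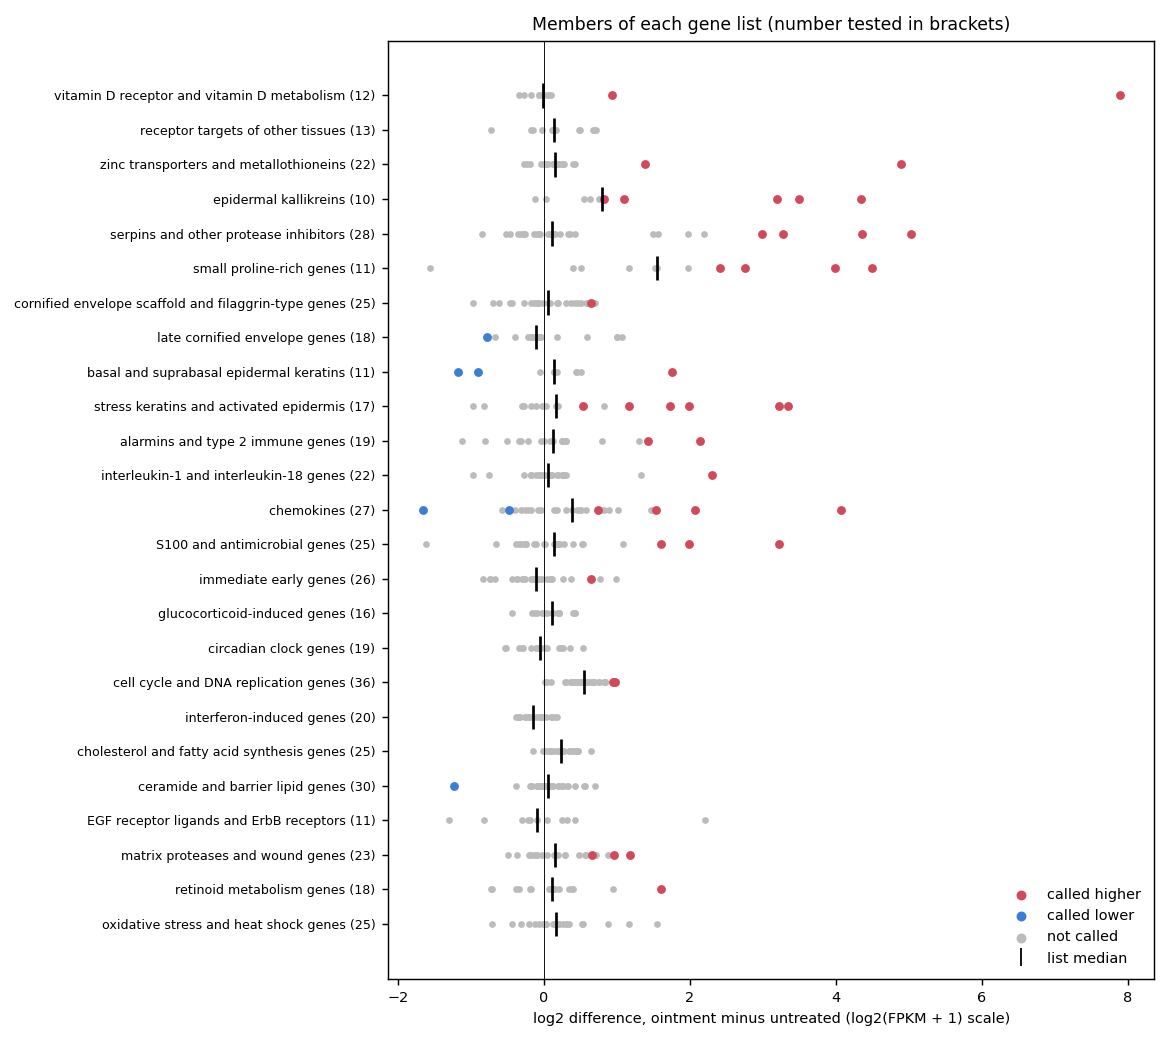
Each point is a tested member of a gene list, at its log2 difference of ointment minus untreated ears; red points were called higher, blue points lower, and the black tick is the list median. Called members are most frequent among kallikreins (5 of 10) and small proline-rich genes (4 of 11), and the 36 cell cycle genes lie without exception to the right of 0.

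Genes of inflammation and of cell recruitment were among those called, many of them at like levels after PBS. S100a8, which encodes a subunit of calprotectin, made by neutrophils and by stressed keratinocytes, was at 6.74, 1.66 and 9.85 FPKM in untreated, 58.7, 67.6 and 26.8 FPKM in PBS-treated and 49.3, 61.6 and 56.1 FPKM in ointment-treated ears. Its difference was 3.22 ± 0.49 (adjusted p = 0.0155), and that of its partner S100a9 was 1.99 ± 0.34 (adjusted p = 0.0262). Ointment minus PBS was 0.22 ± 0.49 and 0.08 ± 0.34 (adjusted p = 1 for both). Without ointment replicate 2 the adjusted p rose to 0.0836 for S100a8 and 0.115 for S100a9, and without replicate 3 to 0.0768 and 0.101. S100a9 was also lost without untreated replicates 2 (adjusted p = 0.0511) and 3 (adjusted p = 0.052).

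Of 7 tested neutrophil markers S100a8 and S100a9 were called, 6 were above 0, and the median was 0.41. Of the 7, 4 were higher without overlap and 5 had an unadjusted p under 0.05, beside 8.97% and 17.1% of all genes. The 14 neutrophil markers in the files summed to 131 to 173 FPKM in untreated and 221 to 244 FPKM in ointment-treated ears, and without S100a8 and S100a9 to 121 to 162 and 141 to 169 FPKM. The granule markers Mpo, Elane and Ngp were at or near 0 FPKM in all 6 libraries, 0.496 for Elane in untreated replicate 3 being the highest. Fpr1, Fpr2 and Mmp8, also below the filter, each lay higher after ointment without overlap. They reached 0.270, 0.312 and 0.661 FPKM after ointment and 0.0795, 0.0575 and 0.168 FPKM in untreated ears. Ltf overlapped, at up to 0.105 FPKM. The part of neutrophils in these differences was not tested.

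Cxcl5, a neutrophil-attracting chemokine, rose from 0.391, 0.693 and 0.483 FPKM to 4.23, 6.54 and 5.54 FPKM (2.07 ± 0.20, adjusted p = 0.00126) and was at 3.78, 4.17 and 2.58 FPKM after PBS. Chi3l3, a chitinase-like protein of alternatively activated macrophages, rose from 0.383, 0.0941 and 0.366 FPKM to 4.26, 6.77 and 3.34 FPKM (2.14 ± 0.29, adjusted p = 0.00958), with PBS at 4.36, 3.57 and 3.09 FPKM. Il1rl1, the receptor of interleukin 33, rose from 0.753, 0.546 and 1.12 FPKM to 3.37, 3.17 and 5.15 FPKM (1.43 ± 0.21, adjusted p = 0.0125), and without ointment replicate 3 was at 1.26 (adjusted p = 0.0623). For these 3 genes the untreated libraries lay below all the others, and ointment minus PBS did not pass the threshold (adjusted p = 0.545, 0.976 and 0.383). Il33 itself was at 30.6, 25.8 and 30.5 FPKM before and 31.5, 30.4 and 32.6 FPKM after ointment (0.12 ± 0.10, adjusted p = 0.604).

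The gene 2610528A11Rik, which encodes the ligand of the lymphocyte homing receptor Gpr15, had one of the smallest p-values. It was at 1.16, 0.454 and 0.643 FPKM in untreated, 9.77, 11.6 and 4.01 FPKM in PBS-treated and 21.3, 36.6 and 28.0 FPKM in ointment-treated ears, 3 groups without overlap. The difference from untreated was 4.07 ± 0.31 (adjusted p = 0.000346) and was called under all 23 alternatives, and ointment minus PBS was 1.72 ± 0.31 (adjusted p = 0.0596). It was at 5.74, 6.37 and 6.37 FPKM in the libraries labelled K5-Cre;VDR f/f.

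Tslp, a cytokine of epithelia that drives type 2 responses, was at 6.92, 5.32 and 6.39 FPKM in untreated and 9.65, 19.3 and 24.3 FPKM in ointment-treated ears. The groups did not overlap, yet the difference of 1.30 ± 0.28 missed the threshold (adjusted p = 0.0598). Without ointment replicate 1, the lowest treated library, it was 1.66 (adjusted p = 0.0048), and with the run of library codes as a term it passed the threshold at 1.30 (adjusted p = 0.0398). PBS libraries were at 4.87, 3.59 and 5.62 FPKM, and ointment minus PBS was 1.65 ± 0.28 (adjusted p = 0.044). Of 19 tested alarmin and type 2 genes, Il1rl1 and Chi3l3 were called higher and none lower, with a median of 0.12.

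Ccl27a, the keratinocyte chemokine that draws T cells bearing Ccr10 to skin, fell from 274, 241 and 256 FPKM to 126, 61.4 and 67.4 FPKM (-1.66 ± 0.26, adjusted p = 0.0193). PBS libraries were at 196, 130 and 193 FPKM, between the groups, and those labelled K5-Cre;VDR f/f at 327, 257 and 213 FPKM, within or near the untreated range. The call was lost without untreated replicate 3 (-1.66, adjusted p = 0.064) and without ointment replicates 2 (-1.47, adjusted p = 0.0906) and 3 (-1.54, adjusted p = 0.0878). Cxcl16, a membrane-bound chemokine, fell by 0.48 ± 0.09 (adjusted p = 0.038) and was lost in 7 of 12 fits with 1 library left out, with an adjusted p of up to 0.148 without ointment replicate 2. Of 27 chemokine genes tested, 4 were called higher (2610528A11Rik, Cxcl5, Ccl4 and Ccl6) and 2 lower, beside 0.989% and 0.32% of all genes. The list median was 0.38, and 0.39 for PBS minus untreated. The calls of Ccl4 (1.53 ± 0.32, adjusted p = 0.0479) and Ccl6 (0.73 ± 0.14, adjusted p = 0.0402) were lost in 10 and 9 of 12 fits with 1 library left out, with adjusted p of up to 0.191 and 0.141 without ointment replicate 2. That of Ccl4 was also lost with the run of library codes as a term (adjusted p = 0.0532).

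Defb14, an antimicrobial beta-defensin of keratinocytes, rose from 54.9, 51.6 and 29.6 FPKM to 106, 200 and 115 FPKM (1.60 ± 0.26, adjusted p = 0.0235), while PBS libraries stayed at 49.0, 54.6 and 44.8 FPKM. The call was lost without untreated replicate 3 (1.32, adjusted p = 0.0603) and without ointment replicate 2 (1.31, adjusted p = 0.0777) or 3 (1.71, adjusted p = 0.0756). With S100a8 and S100a9 it made 3 called higher and none lower of 25 tested S100 and antimicrobial genes, whose median was 0.14. Gsdmc, a pore-forming gasdermin, was called higher (2.30 ± 0.41, adjusted p = 0.0294) as the only called member of 22 interleukin-1 and interleukin-18 genes with a median of 0.05, a call lost in 7 of 12 fits with 1 library left out, with an adjusted p of up to 0.116 without ointment replicate 2.

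Several further increases lay outside the lists and were chosen after their values were seen. Pla2g4f, a cytosolic phospholipase A2, rose from 15.9, 20.6 and 17.4 FPKM to 71.6, 78.3 and 70.3 FPKM, a narrow range in both groups. The difference was 1.98 ± 0.19 (adjusted p = 0.00126), ointment minus PBS was 1.60 ± 0.19 (adjusted p = 0.00669), and the call held under all 23 alternatives. Ptges, which encodes the microsomal prostaglandin E synthase, rose from 9.58, 9.26 and 8.43 FPKM to 18.8, 21.0 and 26.4 FPKM (1.18 ± 0.14, adjusted p = 0.0048), and was at 22.2 to 23.9 FPKM in the libraries labelled K5-Cre;VDR f/f, where Pla2g4f was at 20.8 to 30.3 FPKM. Pla2g4f was thus above its untreated range but far below the wild-type ointment libraries there, and Ptges was within the range of the latter.

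Ass1, the argininosuccinate synthase of arginine synthesis, rose from 16.9, 17.9 and 15.5 FPKM to 33.9, 44.7 and 48.1 FPKM (1.27 ± 0.13, adjusted p = 0.00157), with ointment minus PBS at 1.11 ± 0.13 (adjusted p = 0.00669). Crot, the peroxisomal carnitine octanoyltransferase, was at 27.6, 22.3 and 24.4 FPKM before and 37.0, 109 and 88.3 FPKM after ointment (1.48 ± 0.30, adjusted p = 0.0461), and was lost in 11 of 12 fits with 1 library left out, with an adjusted p of up to 0.159 without ointment replicate 2. The connexins Gjb6 and Gjb2, which form gap junctions between keratinocytes, rose by 1.93 ± 0.28 (adjusted p = 0.0125) and 1.57 ± 0.26 (adjusted p = 0.0258). They were 2 of 6 Gjb genes tested, and they differed in the controls: Gjb2 was at 25.2 to 33.2 FPKM after PBS and 28.0 to 43.7 FPKM after ointment, and Gjb6 at 2.44 to 4.91 and 5.18 to 13.2 FPKM. Ointment minus PBS was 0.17 ± 0.26 (adjusted p = 0.994) for Gjb2 and 1.18 ± 0.28 (adjusted p = 0.162) for Gjb6. Without ointment replicate 3 the calls of Gjb6 (adjusted p = 0.0711) and Gjb2 (adjusted p = 0.0779) were lost, and Gjb2 also without ointment replicate 2 (adjusted p = 0.116) and untreated replicates 2 (adjusted p = 0.0502) and 3 (adjusted p = 0.0627). Fxyd4, a regulator of the sodium pump, rose from 0.367, 0.180 and 1.02 FPKM to 3.56, 8.09 and 5.29 FPKM (2.11 ± 0.30, adjusted p = 0.0123), and not past the threshold without ointment replicate 2 (1.85, adjusted p = 0.0541) or 3 (2.12, adjusted p = 0.0623).

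The decreases were smaller than the increases. Scgb1a1, the secretoglobin best known from airway club cells, fell from 14.2, 7.81 and 8.72 FPKM to 3.33, 1.43 and 1.87 FPKM (-1.81 ± 0.23, adjusted p = 0.00648). Ointment minus PBS was -1.49 ± 0.23 (adjusted p = 0.0281), and the libraries labelled K5-Cre;VDR f/f were at 14.2, 13.9 and 14.8 FPKM. Lipn, a lipase of the granular layer needed for cornification, fell from 16.5, 10.9 and 13 FPKM to 6.20, 3.50 and 5.91 FPKM (-1.24 ± 0.18, adjusted p = 0.013). Both calls held with any 1 library left out. Both were lost with the 6 libraries alone and with the first run of library codes alone (adjusted p of up to 0.383 for each). Lipn was the only called member of 30 tested ceramide and barrier lipid genes, whose median was 0.05.

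Wfdc3, a whey acidic protein family gene, fell from 13, 10.8 and 9.81 FPKM to 4.80, 4.35 and 4.61 FPKM (-1.12 ± 0.14, adjusted p = 0.00602). It was at 1.93, 1.90 and 3.08 FPKM in the libraries labelled K5-Cre;VDR f/f, below the wild-type ointment libraries, whereas Scgb1a1 and Ccl27a were above them there. Crip3, which encodes a LIM domain protein, fell from 1.62, 2.02 and 1.89 FPKM to 0.138, 0.553 and 0.165 FPKM (-1.16 ± 0.18, adjusted p = 0.0164), and was lost without untreated replicate 3 (-1.14, adjusted p = 0.0603) or ointment replicate 3 (-1.09, adjusted p = 0.0797). Ifitm6 (-1.47 ± 0.29, adjusted p = 0.0402) and Gm2002 (-1.30 ± 0.25, adjusted p = 0.0376) completed the rule's decreases with 10 and 7 calls lost in 12 fits with 1 library left out, and adjusted p of up to 0.136 and 0.151 without ointment replicate 2.

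Of 5 tested genes of the calcium-activated chloride channel regulators, a family put together after its values were seen, 4 were called lower (Clca1, Clca2, Clca3 and Clca4), beside 0.32% of all genes. Clca2, the most abundant, was at 234, 213 and 210 FPKM in untreated and 148, 57.1 and 74.5 FPKM in ointment-treated ears (-1.34 ± 0.26, adjusted p = 0.0385), with replicate 1 nearest to the untreated ears. Clca1 (-1.18 ± 0.22, adjusted p = 0.0366), Clca4 (-1.03 ± 0.21, adjusted p = 0.0466) and Clca3 (-0.68 ± 0.10, adjusted p = 0.0175) had the same sign. The genes lie side by side and are close copies, so reads may have been split among them. Gene symbols are those of the deposited values, some of them older names, so these need not be the genes now so called. With 1 library left out the calls of Clca1, Clca2, Clca3 and Clca4 were lost in 10, 10, 3 and 11 of 12 fits, with adjusted p of up to 0.134, 0.134, 0.0922 and 0.175 without ointment replicate 2.

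**Figure D4:**
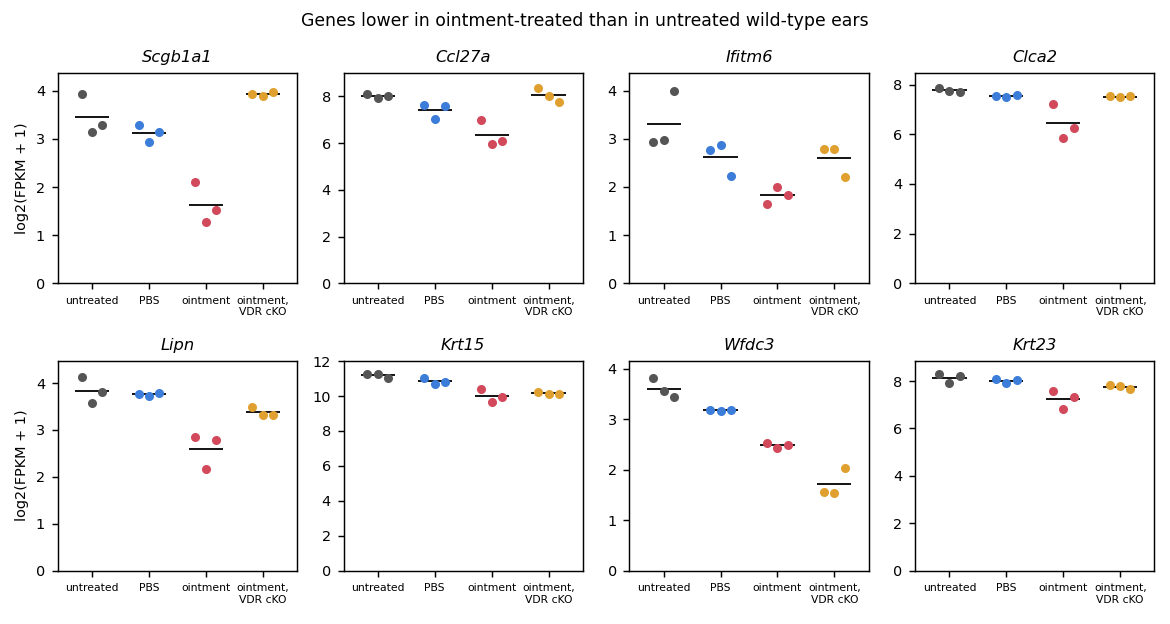
Panels show log2(FPKM + 1) of 8 genes that fell, with 1 point per library, 3 libraries per group and a bar at the group mean; VDR cKO stands for K5-Cre;VDR f/f. Scgb1a1 (13.9 to 14.8 FPKM) and Ccl27a (213 to 327 FPKM) are above the wild-type ointment libraries in those labelled K5-Cre;VDR f/f, while Krt15 is within the range of the wild-type ointment libraries there and Wfdc3 is lower.

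Genes of the cell cycle and DNA replication leaned upwards together by a small amount. All 36 were above 0 in ointment minus untreated, with a median of 0.55 and with 0.35 for PBS minus untreated. The libraries did not overlap for 23 of them, and 27 had an unadjusted p under 0.05, beside 8.97% and 17.1% of all genes. Mcm5, a subunit of the replicative helicase, was called higher (0.97 ± 0.20, adjusted p = 0.041), at 5.32, 6.28 and 4.84 FPKM before and 13.1, 11.9 and 10.2 FPKM after ointment. Prc1, a protein of the dividing cell's midzone, was called as well (0.94 ± 0.19, adjusted p = 0.0467), and these were the 2 called members. Their calls were lost in 10 and 9 of the 12 fits with 1 library left out, with adjusted p of up to 0.159 and 0.136 without ointment replicate 2. Mki67, the usual proliferation marker, was at 3.85, 3.32 and 1.93 FPKM before and 6.18, 3.86 and 3.83 FPKM after ointment (0.49 ± 0.21, adjusted p = 0.262). Untreated replicate 3 had the lowest mean level of the list, 2.57, beside 2.98 and 3 in the other untreated and 3.29 to 3.58 in the ointment libraries.

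Single members stood out in other lists. Timp1, an inhibitor of matrix proteases (1.18 ± 0.22, adjusted p = 0.0371), and Mmp10, a stromelysin (0.65 ± 0.14, adjusted p = 0.0479), were among the called members, all higher, of 23 matrix protease and wound genes, whose median was 0.15. Rbp2, a cellular retinol-binding protein (1.60 ± 0.33, adjusted p = 0.0479), was the only called member of 18 retinoid genes (median 0.11), and Myc (0.65 ± 0.14, adjusted p = 0.049) that of 26 immediate early genes (median -0.11). Each of these 4 calls was lost in 7 or more of the 12 fits with 1 library left out, the largest adjusted p being 0.153, 0.185, 0.188 and 0.185 for Timp1, Mmp10, Rbp2 and Myc, all without ointment replicate 2.

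In 6 further lists limma called no member in either direction. These were glucocorticoid-induced genes (0 of 16, with 3 at an unadjusted p under 0.05), clock genes (0 of 19, with 5), interferon-induced genes (0 of 20, with 2), cholesterol and fatty acid synthesis (0 of 25, with 7), oxidative stress and heat shock genes (0 of 25, with 9) and EGF receptor ligands and ErbB receptors (0 of 11, with 3), beside the receptor targets of other tissues given above. Their medians were 0.11, -0.06, -0.16, 0.23, 0.16 and -0.09. Of all genes tested, 17.1% had an unadjusted p under 0.05. Cholesterol and fatty acid synthesis genes leaned upwards, 23 of 25 above 0, with 5 higher and none lower without overlap. Oxidative stress and heat shock genes had 17 of 25 above 0, with 6 higher and 2 lower without overlap. Interferon-induced genes had 15 of 20 below 0, with none higher and 2 lower without overlap. The shares without overlap were 8.97% higher and 9.85% lower for all genes. Among the ErbB ligands Epgn, or epigen, was at 0.937, 0.461 and 1.13 FPKM before and 1.87, 12.9 and 13.6 FPKM after ointment (2.20 ± 0.51, adjusted p = 0.0685), and Btc, or betacellulin, at 8.04, 6.38 and 12.7 FPKM before and 2.97, 1.99 and 4.08 FPKM after it (-1.31 ± 0.29, adjusted p = 0.0643). Neither pair of groups overlapped and neither gene passed the threshold, though Btc did with the run of library codes as a term (adjusted p = 0.00767).

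Markers of other tissues in the ear differed between the libraries as well, and in a piece of tissue fewer cells of a type and less RNA per cell cannot be told apart. All 22 striated muscle genes were lower after ointment, 16 without overlap and 20 with an unadjusted p under 0.05, beside 9.85% and 17.1% of all genes. Limma called none of the 22, and their median was -0.88, and -0.88 also for PBS minus untreated. Their FPKM summed to 7338 to 15725 in untreated, 3797 to 6330 in ointment-treated and 3387 to 6412 in PBS-treated ears. All 12 adipocyte genes tested were lower too (median -0.54, 3 with an unadjusted p under 0.05 and none called), and untreated replicate 3 had the highest mean level of both lists, 7.36 for muscle and 7.16 for fat, against 6.46 to 6.50 and 5.58 to 5.65 in the other untreated libraries. Acta1, skeletal muscle actin, was at 1595, 1643 and 4069 FPKM before and 833, 1191 and 1444 FPKM after ointment (-0.96 ± 0.38, adjusted p = 0.225). The part of muscle and fat content in the other differences was not tested.

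Hair follicle genes varied within groups more than between them. Their mean level was 2.80 in untreated replicate 3 and 1.96 in ointment replicate 1 and 0.66 to 0.98 in the other 4 libraries, and none of 21 was called or had an unadjusted p under 0.05. Macrophage and monocyte genes had a median of 0.23, with 18 of 20 above 0, 6 higher without overlap, 5 with an unadjusted p under 0.05 and none called. Over all genes 8.97% were higher without overlap and 17.1% had an unadjusted p under 0.05. Basal keratinocyte markers held 1 called lower, Krt15, of 12, and a median of -0.04, and mast cell and basophil markers 1 called higher of 10, Hdc, the histamine-forming enzyme, at 0.87 ± 0.18 (adjusted p = 0.0466), a call lost in 11 of 12 fits with 1 library left out, with an adjusted p of up to 0.186 without ointment replicate 2. Limma called no member of the lists of sebaceous gland (15 tested, 1 with an unadjusted p under 0.05), melanocyte (8, 1), fibroblast (17, 1), ear cartilage (15, 1), endothelium (16, 2), Langerhans and dendritic cell (16, 2), T cell (12, 2), Schwann cell and nerve (11, 3) and erythroid (5, 0) genes. Markers of epidermis, dermis and cartilage were thus present in all 6 libraries, as a piece of ear skin would hold.

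**Figure D5:**
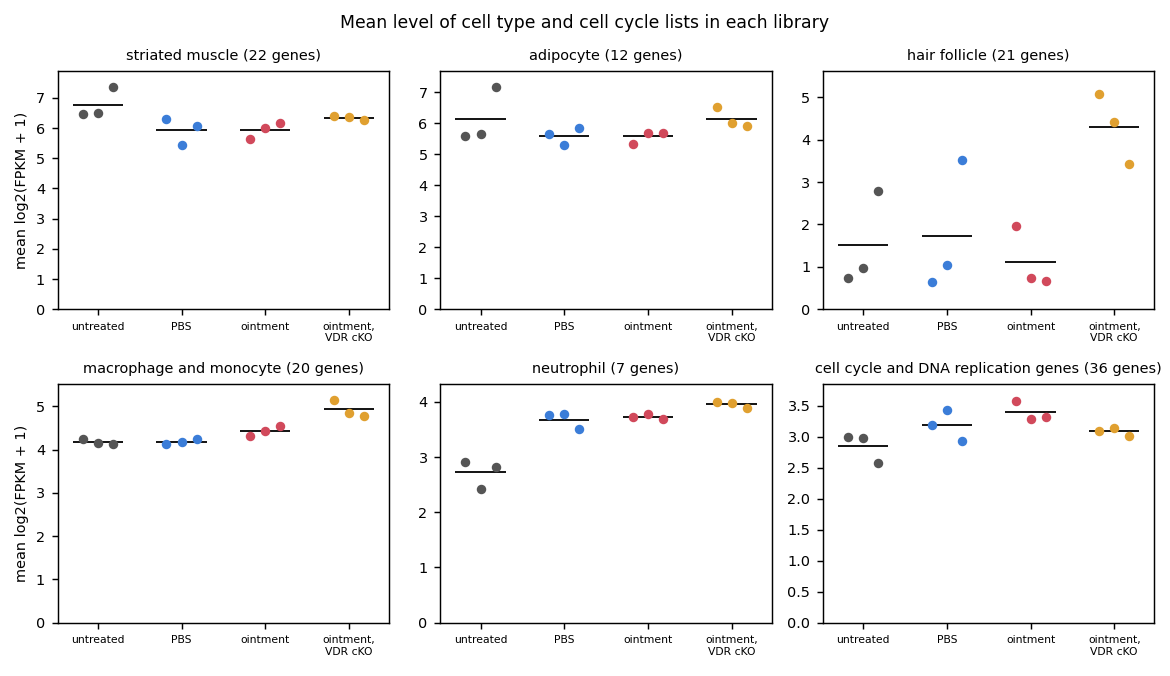
Points are the mean log2(FPKM + 1) of the tested genes of a list in each library, with bars at the mean of 3 libraries per group. Untreated replicate 3 is highest among wild-type libraries for muscle (7.36) and fat (7.16), and the cell cycle list is at 3.29 to 3.58 in the 3 ointment libraries, above all untreated ones.

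Of 174 short RNA genes tested, Snord53 was called higher and Mir744 lower. Snord53, a small nucleolar RNA, was listed at 0 in all untreated libraries and at 299, 290 and 712 FPKM after ointment, and at 91.3, 136 and 153 FPKM after PBS. Mir744 was at 26.3, 26.3 and 36.6 FPKM in untreated ears and listed at 0 in all ointment libraries and in those labelled K5-Cre;VDR f/f. The library kit was one for longer RNA, a short transcript's FPKM rests on few reads, and a listed 0 can be a failed estimate, so no fold is given for either. The Snord53 call was lost in 10 of 12 fits with 1 library left out, with an adjusted p of up to 0.146 without ointment replicate 2, and that of Mir744 held in all of them.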

How the data were processed

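Gene-level FPKM values were deposited per library by the authors, 1 table for each of 12 libraries, from total RNA of mouse ear skin made into libraries with a NEBNext Ultra RNA kit, per the labels' protocols. TopHat2 2.0.8, Bowtie2 2.1.0, Cufflinks 2.1.1 and the mm9 build are named, with no settings, per the submitters' processing notes. Raw counts were not used here. Groups were taken from the source labels. Genes under 1 FPKM in more than 9 of the 12 libraries were dropped, and the other 14059 were tested on log2(FPKM + 1), with the pseudocount 1, by limma 3.58.1 in R 4.3.3: 1 fit of 4 groups, a mean-variance trend and Benjamini-Hochberg adjustment over all genes. The fit was also run on simulated data with independent normal noise for each gene. That simulation held no runs of library codes and no shifts shared between genes. It therefore does not bear on how the calls moved with single libraries. A pseudocount understates changes of low genes. Depth was read from the value of 1 read at low genes and serves as a description only. The rule for named genes took Vdr and Cyp24a1 and, short RNAs apart, the 12 largest called increases and 10 largest called decreases. Those had no overlap of the libraries and a mean of at least 1 FPKM in the higher group. The rule also took up to 4 members of each list with the smallest p. Other genes were named outside the rule with their values already seen, and only some are marked so where they appear. Klk7, Klk8, Krt16, Krt17, Cd44, Ccl4, Ccl6 and Il33 are among those not marked. The gene lists, like the comparison itself, were chosen with earlier results of these data known. Alternatives were another pseudocount, no filter or a stricter one, quantile and median-of-ratios scaling, the 6 libraries alone, the run of library codes as a term or its first run alone, array weights, each library left out and, chosen after seeing the data, zeros of abundant genes set to missing and short RNAs left out. Promoter sequences are RefSeq's on GRCm38.p6, not the build of the files, and were matched by symbol. A result for a called member of the matrix protease and wound list is not reported here.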

Additional observations from a re-analysis of the deposited data

How the results depend on the processing

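The 184 calls (139 higher, 45 lower) moved with the processing, while all called genes present in a fit kept their sign, except that 183 of 184 did so with zeros of abundant genes set to missing. Without the filter 90 genes were called (69 higher, 21 lower), with the 6 libraries alone 12 (11 higher, 1 lower), with the first run of library codes alone 26 (23 higher, 3 lower), and with array weights 561 (350 higher, 211 lower). Leaving out 1 library gave 28 to 248 calls, 24 to 168 higher and 4 to 94 lower. Chosen after seeing the data, setting zeros of abundant genes to missing gave 192 calls and leaving out short RNAs 198. Krt17, called under no alternative, changed sign from -0.03 to 0.130 with the first run alone, and was between -0.113 and 0.0574 with 1 library left out, above 0 without untreated replicate 3 (0.0574) and ointment replicate 3 (0.0395). Vdr, not called in any of them, changed sign from -0.08 to 0.0824 with the first run alone, and was between -0.354 and 0.0703 with 1 library left out, above 0 without untreated replicates 2 (0.0550) and 3 (0.0703). Of 69 called genes followed individually, 6 were called under every alternative and 20 were lost under most of them. The cause was not tested. The calls of Serpina9, Wfdc3, Ptges and Ass1 held with any 1 library left out. They were lost with the 6 libraries alone and with the first run of library codes alone (adjusted p of up to 0.258, 0.0826, 0.0826 and 0.175). With the run of library codes as a term, 253 genes were called (188 higher, 65 lower), including 177 of the 184; among genes followed individually, the calls of Mmp10 (adjusted p = 0.0502), Hdc (0.0522) and Ccl4 (0.0532) were lost, and Tslp (0.0398), Btc (0.00767), Neb (0.0404) and Mcm6 (0.0156) were called. No paired analysis was possible because the labels carry no replicate numbers that tie single libraries of different groups. Low FPKM values rest on few reads, most of all in ointment replicate 3 by the estimate of depth.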
